A study of Mus musculus with 8 samples.

Results

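The keratin gene family was followed in dental epithelium of the mouse incisor, with and without the Polycomb gene Bmi1. Its members were taken as all protein-coding genes on the array whose current symbol is Krt followed by a number and at most 1 letter, which leaves out the keratin-associated proteins. This gave 39 keratin genes of 17178 genes with a symbol, 19 on chromosome 11 and 20 on chromosome 15. RNA abundance was measured on single-colour Agilent arrays in 4 samples homozygous null for Bmi1 (Bmi1-/-, here Bmi1 null) and 4 wild-type (WT) samples, all incisor dental epithelia from mice of mixed genetic background. Whole incisors had been loosened in accumax, the epithelium had been pulled off the mesenchyme, and total RNA was labelled with Cy3. The labels give no age, no sex and no statement that the samples came from separate animals, so p-values reflect the spread among these samples, which may be technical. In bulk RNA, more cells of a type and more RNA per cell cannot be told apart.

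Keratins are the intermediate filament proteins of epithelia. A type I (acidic) keratin pairs with a type II (basic) keratin, and the pair polymerises into filaments that are anchored at desmosomes and hemidesmosomes. Basal layers of stratified epithelia are known for the Krt5 and Krt14 pair, simple epithelia for Krt8 and Krt18, differentiating epidermal layers for Krt1 and Krt10, and stressed or appendage epithelia for Krt6a, Krt16 and Krt17. Hair keratins build the hair shaft and nail, and other keratins the root sheaths around the hair. In the continuously growing mouse incisor the enamel organ comprises ameloblasts, which secrete and mature enamel, and the supporting stratum intermedium and stellate reticulum. Most type I genes lie together in 1 cluster and the type II genes in another.

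Signals are given as log2 of the background-corrected spot signal minus the log2 of the array's 75th percentile, so that 0 is the 75th percentile. Probes differ in their response, so the level of a keratin is compared between samples and not with that of another keratin. Sums of signals weigh each probe by its own response and do not measure RNA amounts across genes. A spot was called well above background by the scanner software's own indicator. The share of all probes well above background was 64.2% to 68.2% on Bmi1 null arrays and 69.6% to 74.4% on WT arrays. The lowest signal well above background lay between -6.59 and -5.87 on Bmi1 null arrays and between -7.25 and -6.35 on WT arrays. Bmi1 itself had -2.92, -1.22, -1.23 and -1.04 in Bmi1 null replicates 1 to 4, against 1.16, 1.27, 1.20 and 1.25 in WT replicates 1 to 4 (limma adjusted p = 0.0305). Its probe stayed well above background on all arrays, and a probe outside the deleted part of the gene would check nothing. Bmi1 null replicate 1 stood apart: its median correlation with the other arrays was 0.941 over 25081 probes well above background on all 8 arrays, against 0.973 to 0.981 for the other Bmi1 null arrays and 0.972 to 0.980 for the WT arrays. WT replicate 1 carries different numbers in its title and in its file name, so which WT sample it is remains uncertain.

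The promoters of the keratins that are described in most detail below, where the RefSeq table (GRCm38.p6) lists one, are shown from 250 bases before to 50 bases after the annotated start. They are shown because these genes had among the largest differences between genotypes, and because these windows differ in their motif matches. Capitals mark matches, on either strand, to any of 7 short motifs. These are the TATA box (TATAAA), the CCAAT box (CCAAT), the GC box (GGGCGG), an AP-1 site (TGANTCA), an AP-2 site (GCCNNNGGC), a homeodomain core (TAATTA) and a TATA-like run (ATAAAA). The TATA-like run was added after the sequences had been seen.
Krt5 (chr15:101712856-101713155, strand minus): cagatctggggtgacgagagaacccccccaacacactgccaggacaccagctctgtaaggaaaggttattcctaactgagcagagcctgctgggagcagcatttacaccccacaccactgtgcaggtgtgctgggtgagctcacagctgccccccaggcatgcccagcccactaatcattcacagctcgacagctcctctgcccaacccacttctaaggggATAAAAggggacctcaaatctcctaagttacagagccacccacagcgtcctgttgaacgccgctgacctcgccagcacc
Krt14 (chr11:100205981-100206280, strand minus): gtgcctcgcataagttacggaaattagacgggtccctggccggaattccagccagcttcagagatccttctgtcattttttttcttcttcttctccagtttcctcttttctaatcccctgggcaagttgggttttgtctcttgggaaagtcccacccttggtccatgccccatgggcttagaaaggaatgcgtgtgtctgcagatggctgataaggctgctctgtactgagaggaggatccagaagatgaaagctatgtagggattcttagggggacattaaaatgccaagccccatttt
Krt7 (chr15:101412153-101412452, strand plus): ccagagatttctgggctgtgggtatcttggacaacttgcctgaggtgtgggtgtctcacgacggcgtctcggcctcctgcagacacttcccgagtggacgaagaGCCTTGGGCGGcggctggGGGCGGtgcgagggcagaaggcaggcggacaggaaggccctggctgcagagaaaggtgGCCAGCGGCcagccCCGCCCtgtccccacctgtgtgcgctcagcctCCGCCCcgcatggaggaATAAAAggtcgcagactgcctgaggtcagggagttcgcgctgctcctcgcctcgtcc
Krt75 (chr15:101573855-101574154, strand minus): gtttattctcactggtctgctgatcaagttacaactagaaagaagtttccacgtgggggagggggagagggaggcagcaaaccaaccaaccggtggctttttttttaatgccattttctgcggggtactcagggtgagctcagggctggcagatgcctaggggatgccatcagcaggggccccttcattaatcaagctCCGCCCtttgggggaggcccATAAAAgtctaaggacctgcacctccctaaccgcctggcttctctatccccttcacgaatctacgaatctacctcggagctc

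Krt5, Krt7 and Krt75 hold the TATA-like letters ATAAAA, whose first base lies 29, 7 and 32 bases before the start. None of the 7 motifs was found in the Krt14 window. That window surrounds the listed start only, and any other start of Krt14 was not searched, so its lack of matches does not describe the promoter of Krt14 as a whole. Krt7, a keratin of simple and glandular epithelia, has 4 GGGCGG matches and 2 GCCNNNGGC matches, of which 1 pair overlaps, and 21 CG dinucleotides. Krt75 has 1 GGGCGG match, and Krt5 and Krt14 have none, with 8, 6 and 5 CG dinucleotides. Over the 26 listed promoters of 25 keratins on the array, 12 (46.2%) hold TATAAA, against 13.6% of all 32851 promoters in the table. ATAAAA is held by 15 (57.7%) of the keratin promoters and 18.5% of all, and overlaps TATAAA where an A follows it. GGGCGG is held by 2 (7.69%) of the keratin promoters, Krt7 and Krt75, against 35.7% of all. CCAAT stands at 30.8% of keratin promoters and 37.4% of all, GCCNNNGGC at 15.4% and 16.6%, TGANTCA at 7.69% and 7.81%, and TAATTA at 7.69% and 5.29%. These are matches of letters and were not tested.

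Of the 39 keratins, 23 were well above background on all 8 arrays, 5 on 4 to 7 arrays, 4 on 1 to 3 arrays and 7 on none. The 7 on no array were Krt4 and Krt12, known from mucosa and cornea, the hair follicle keratins Krt26, Krt31, Krt33a and Krt87, and Krt90. Krt2 was well above background on 1 Bmi1 null and 1 WT array by 1 of its 2 probes, Krt86 on 1 Bmi1 null array, Krt34 on 1 WT array and Krt78 on 2 WT arrays. These 11 keratins were too dim to be tested. All 7 keratins on no array had higher means in Bmi1 null than in WT samples. Krt90 had -7.46 against -8.64, and Krt31 had -7.52 against -7.74. On this scale such background values thus lay higher in Bmi1 null samples. Their part in the fold changes of dim keratins, and in the share of positive fold changes, was not tested. Per array, 29, 23, 26 and 24 keratins were above background in Bmi1 null replicates 1 to 4, against 29, 29, 29 and 26 in WT replicates 1 to 4. Bmi1 null samples averaged 25.5 ± 2.65 and WT samples 28.2 ± 1.5 (SD, n = 4 each), and an exact permutation test gave p = 0.257 (two-sided, smallest possible 0.0286).

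The 2 genotypes were compared to see where keratin signals differ with the Bmi1 genotype. Only genes with a probe above background on 4 or more arrays were tested, which left 28 keratins. None of the 28 passed 5% FDR in either direction by limma over all 22345 genes tested. Of these 22345, 13861 had a symbol, and each tested probe without a symbol was counted as a gene of its own. Shares of all genes therefore include such probes. Across all genes 0.0492% were called in either direction, with 0.0403% higher and 0.00895% lower in Bmi1 null samples. At an unadjusted p under 0.05, 5 keratins (17.9%) were higher and 0 were lower, against 4.21% and 2.16% of all genes. The 5 were Krt14, Krt35, Krt5, Krt17 and Krt7. The 4 Bmi1 null arrays lay wholly above the 4 WT arrays for 2 keratins (7.14%), Krt5 and Krt35, and wholly below for none, against 1.82% and 1.26% of all genes. In all, 20 of 28 keratins (71.4%) had a positive log2 fold change, against 51.4% of all genes, and the median was 0.51 against 0.01. The median over keratins was 0.28 without Bmi1 null replicate 1, with 20 of 28 positive, though not the same 20, and 5 higher and 1 lower at an unadjusted p under 0.05. The lowest adjusted p of any keratin in the comparison was 0.677. Without Bmi1 null replicate 1 the log2 fold changes of Krt14, Krt5, Krt17, Krt35, Krt75 and Krt222 were 0.80, 0.78, 0.75, 0.91, 0.83 and -0.78. Without WT replicate 1, the sample of uncertain number, they were 1.09, 0.81, 0.83, 1.16, 1.37 and -1.24.

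**Figure D1:**
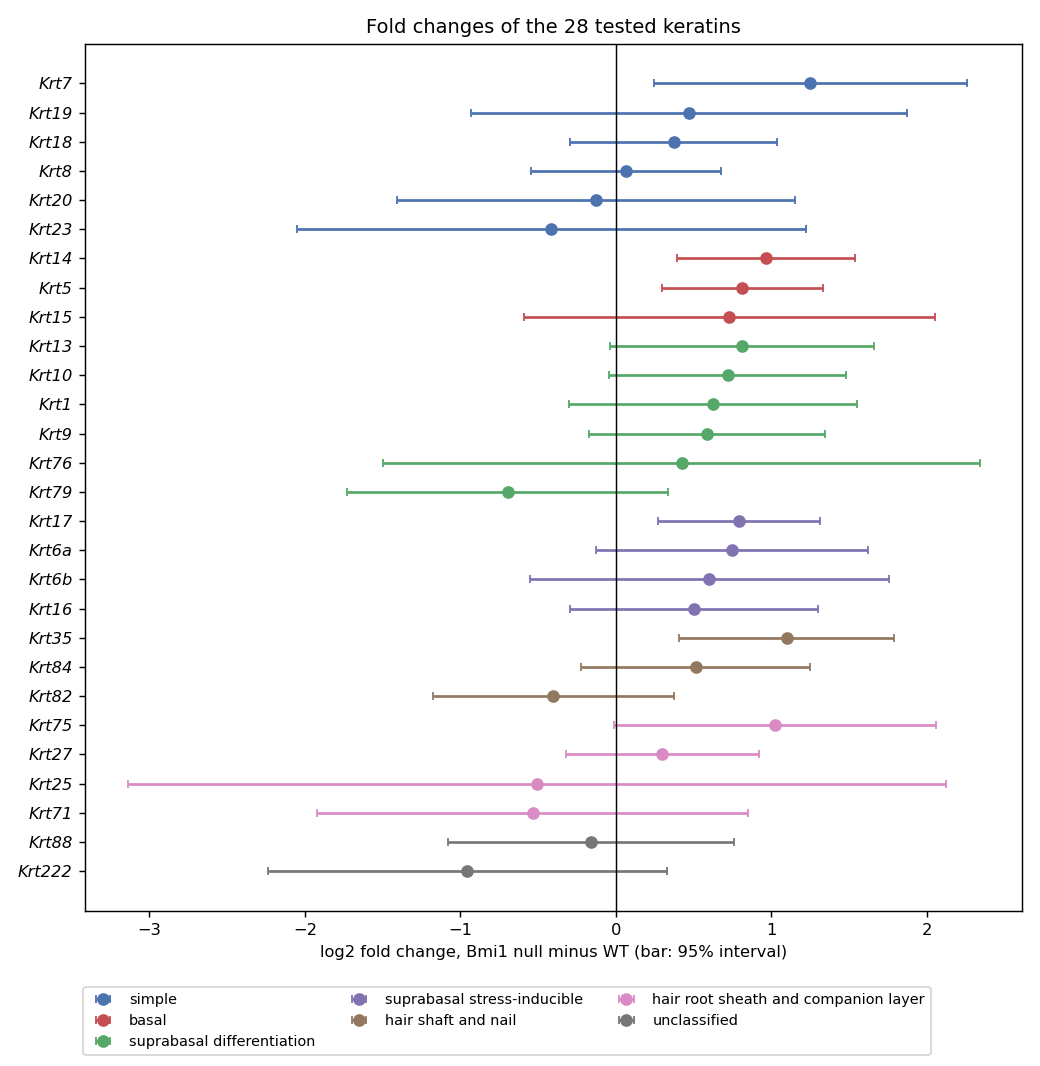
Log2 fold change of each of the 28 tested keratins, Bmi1 null minus WT, with its 95% interval from limma (horizontal axis, log2), grouped by the kind of keratin (vertical axis and colour). The intervals, which are not adjusted for the number of genes, lie above 0 for Krt7, Krt14, Krt5, Krt17 and Krt35 and span 0 for the other 23.

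The basal keratins Krt5 and Krt14 form the defining pair of stratified epithelium. Krt14 (probe A_51_P506417), the type I partner of the basal pair, had 7.47, 6.76, 7.32 and 6.31 in Bmi1 null replicates 1 to 4, against 6.38, 5.86, 5.75 and 6.0 in WT replicates 1 to 4. Bmi1 null replicates 1 and 3 were highest, and replicate 4 lay just below WT replicate 1, so the groups overlapped. The means were 6.96 ± 0.53 in Bmi1 null and 6.0 ± 0.27 in WT samples (SD, n = 4 each), a log2 fold change of 0.97 ± 0.26 (SE), or 1.95-fold (95% interval 0.39 to 1.54, limma adjusted p = 0.677). Krt5 (probe A_51_P186856), its type II partner, had 7.24, 6.82, 7.66 and 6.85 in Bmi1 null samples, against 6.33, 6.73, 5.90 and 6.35 in WT samples. Every Bmi1 null array was above every WT array, by a narrow margin over WT replicate 2. The log2 fold change of Krt5 was 0.81 ± 0.23 (SE), or 1.76-fold (95% interval 0.29 to 1.33, limma adjusted p = 0.681).

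The difference between Krt5 and Krt14 within a sample, set to 0 at its WT mean, averaged -0.15 ± 0.33 over Bmi1 null samples and had an SD of 0.40 over WT samples (n = 4 each), so the balance of the pair differed by less than its spread. Krt15, a type I keratin of basal cells and of epithelial stem cell niches, had 4.63, 2.36, 4.05 and 2.51 in Bmi1 null samples, against 3.68, 1.33, 3.23 and 2.39 in WT samples. Both genotypes had a pair of high and a pair of low arrays, and the log2 fold change was 0.73 ± 0.60 (SE) with an interval of -0.59 to 2.05. Without Bmi1 null replicate 1 it was 0.32, and without WT replicate 2 it was 0.29. All 3 basal keratins thus had positive fold changes, with a median of 0.81, and none passed the test.

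Of the 4 keratins induced by stress and found in epithelial appendages, all had positive fold changes, with a median of 0.67 and none past 5% FDR. Krt17 (probe A_51_P433450), a type I keratin of appendages and of injured epithelium, had 7.16, 7.13, 7.38 and 6.48 in Bmi1 null samples, against 6.34, 6.58, 5.74 and 6.31 in WT samples. WT replicate 2 lay above Bmi1 null replicate 4, and the other Bmi1 null arrays were above all WT arrays. The log2 fold change was 0.79 ± 0.23 (SE), or 1.73-fold (95% interval 0.27 to 1.31, limma adjusted p = 0.681). Krt6a, a type II keratin of wounded and oral epithelium, had -0.22, -1.38, 0.17 and -1.43 in Bmi1 null samples, against -1.25, -1.41, -1.07 and -2.12 in WT samples. Bmi1 null replicates 1 and 3 were above the other 6 arrays, while replicates 2 and 4 lay within the WT range. Krt6b and Krt16, the close relative and the usual partner of Krt6a, had log2 fold changes of 0.60 ± 0.52 (SE) and 0.50 ± 0.36 (SE). Krt6b had 0.29 without Bmi1 null replicate 1 and 0.30 without WT replicate 4. Krt16 had 0.25 without Bmi1 null replicate 3 and 0.33 without WT replicate 4. Krt6a had 0.45 without Bmi1 null replicate 3.

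Krt14, Krt5 and Krt17 differed in size with the scaling. Under quantile normalization the log2 fold changes of Krt14, Krt5 and Krt17 were 0.38, 0.23 and 0.24, under cyclic loess 0.67, 0.51 and 0.49, and in the authors' deposited normalized values 0.43, 0.26 and 0.26. Under median scaling they were 0.98, 0.83 and 0.81. All 3 kept their direction under these settings. Krt7 had 1.32 and Krt75 had 0.97 under quantile normalization. Krt35 had 1.1 under quantile normalization and 0.50 in the authors' deposited normalized values.

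**Figure D2:**
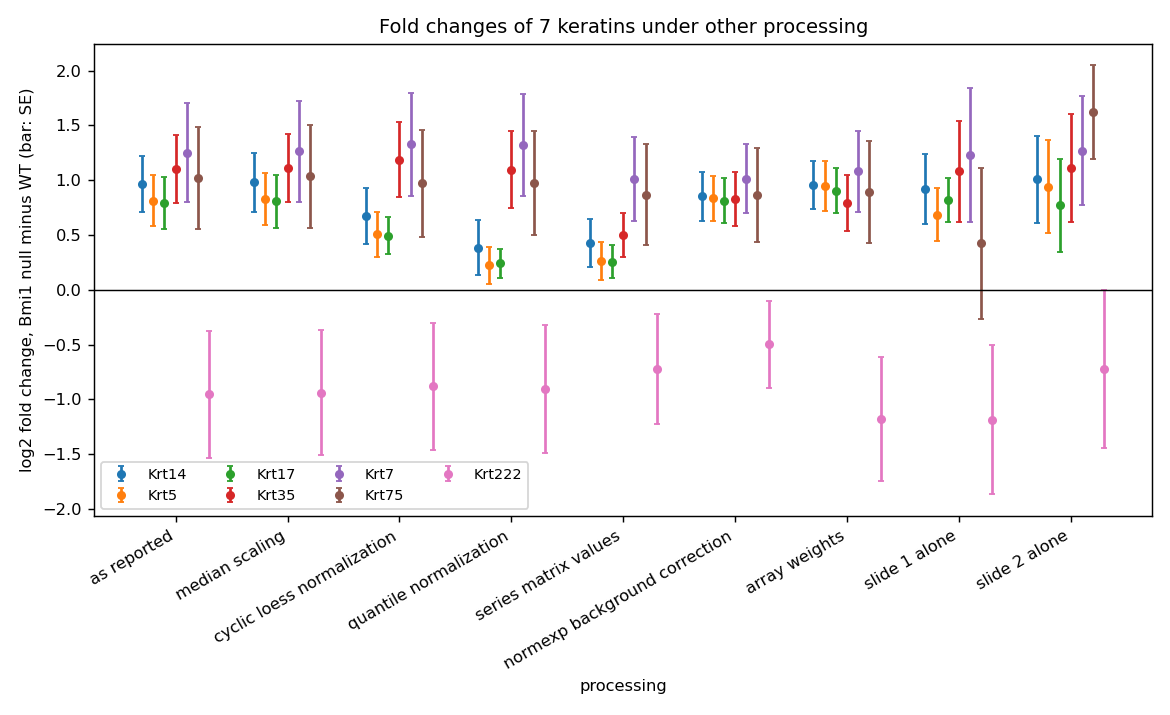
Log2 fold change, Bmi1 null minus WT, with its SE (vertical axis) of 7 keratins under other processing (horizontal axis). Krt14, Krt5 and Krt17 drop from between 0.79 and 0.97 as reported to between 0.23 and 0.38 under quantile normalization, and Krt222 stays below 0 throughout.

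Among the hair keratins, 3 of the 8 shaft and nail keratins on the array were bright enough to be tested. Krt35 (probe A_51_P107140), a type I hair shaft keratin, had -3.43, -4.33, -4.44 and -3.76 in Bmi1 null samples, against -4.90, -5.40, -5.03 and -5.01 in WT samples. The groups did not overlap, and the WT arrays were close together. Krt35 was dim, and background values lay higher in Bmi1 null samples on this scale. Their part in its difference was not tested. The means were -3.99 ± 0.48 in Bmi1 null and -5.09 ± 0.22 in WT samples (SD, n = 4 each), a log2 fold change of 1.1 ± 0.31 (SE), or 2.14-fold (95% interval 0.41 to 1.79, limma adjusted p = 0.681). Krt84 and Krt82, both type II hair keratins, had log2 fold changes of 0.51 ± 0.33 (SE) and -0.40 ± 0.35 (SE). Without Bmi1 null replicate 1 these were 0.26 and -0.67.

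Of the root sheath and companion layer keratins, 4 of 5 were tested. Krt75 (probe A_51_P354838), a type II keratin of the hair companion layer that has also been described in enamel-forming epithelium, had 3.08, 1.48, 3.11 and 2.36 in Bmi1 null samples, against 2.55, 0.45, 1.79 and 1.17 in WT samples. The ranges overlapped broadly, with Bmi1 null replicate 2 below WT replicates 1 and 3. The log2 fold change was 1.02 ± 0.47 (SE), or 2.03-fold (95% interval -0.01 to 2.06, limma adjusted p = 0.784), with 0.42 within slide 1 and 1.62 within slide 2. Krt27, a type I inner root sheath keratin, was above background on all 8 arrays and had 0.30 ± 0.28 (SE). Krt25 and Krt71, which pair in the inner root sheath, had -0.51 ± 1.19 (SE) and -0.54 ± 0.63 (SE). Krt25 was above background on 1 Bmi1 null and 3 WT arrays. WT replicate 3 had -2.46, and the other 7 arrays lay between -8.67 and -4.47. Without WT replicate 3 its log2 fold change was 0.70.

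Of the 6 simple epithelial keratins, 4 had positive fold changes, with a median of 0.22. Krt7 (probe A_52_P410685) had -1.25, -2.67, -2.06 and -3.31 in Bmi1 null samples, against -2.73, -4.11, -3.79 and -3.66 in WT samples. Bmi1 null replicate 1 was highest, and replicate 4 lay below WT replicate 1. The log2 fold change was 1.25 ± 0.45 (SE), or 2.38-fold (95% interval 0.25 to 2.26, limma adjusted p = 0.770), and it was 0.89 without Bmi1 null replicate 1. Krt8, the type II keratin of simple epithelia, had 3.41, 2.87, 2.54 and 2.32 in Bmi1 null samples, against 3.14, 3.04, 2.39 and 2.31 in WT samples. These values intermix, and the interval of the difference, -0.55 to 0.68, leaves room for a modest difference either way. The second Krt8 probe averaged 2.79 ± 0.68 in Bmi1 null and 2.51 ± 0.45 in WT samples (SD, n = 4 each). Krt18, the partner of Krt8, had 0.37 ± 0.30 (SE), and Krt19, a keratin without a fixed partner, 0.47 ± 0.63 (SE). Without Bmi1 null replicate 1 Krt19 had 0.05, and without WT replicate 4 Krt18 had 0.13. Krt20, of gut epithelium, had -0.13 ± 0.58 (SE) and Krt23 -0.41 ± 0.74 (SE). Krt23 was above background on 1 Bmi1 null and 3 WT arrays, and had 0.59 under normexp.

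Of the 10 suprabasal differentiation keratins on the array, 6 were tested and 5 had positive fold changes, with a median of 0.60. Krt13, a type I keratin of mucosal epithelia, had 4.61, 3.10, 3.37 and 2.50 in Bmi1 null samples, against 2.94, 2.18, 2.74 and 2.48 in WT samples. Bmi1 null replicate 1 was far above the others, and without it the log2 fold change was 0.40 in place of 0.81. Its second probe was above background on 2 Bmi1 null and 2 WT arrays only, and its usual partner Krt4 on none. Krt10 and Krt1, the pair of differentiating epidermis, had log2 fold changes of 0.72 ± 0.34 (SE) and 0.62 ± 0.42 (SE). Krt1 had -2.62, -4.21, -3.93 and -4.53 in Bmi1 null samples, against -4.04, -4.28, -4.52 and -4.94 in WT samples, so that replicate 1 again stood highest. Without Bmi1 null replicate 1 the log2 fold change of Krt1 was 0.22. Krt9, of palm and sole epidermis, had 0.58 ± 0.34 (SE), with 2 Bmi1 null and 4 WT arrays above background, and had 0.25 with a common floor and 0.16 in the authors' deposited normalized values. Krt79, known from the opening of the hair canal, had -0.70 ± 0.46 (SE). Krt76, a keratin of the palate and gingiva, had -1.19, -5.44, -1.89 and -3.46 in Bmi1 null samples, against -3.97, -3.87, -1.72 and -4.12 in WT samples. Its high arrays were Bmi1 null replicates 1 and 3 and WT replicate 3.

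The unclassified members Krt222 and Krt88 had negative fold changes. Krt222 (probe A_52_P392205) had -3.65, -2.97, -3.41 and -2.47 in Bmi1 null samples, against -3.04, -3.56, -0.87 and -1.21 in WT samples. Only WT replicates 3 and 4 were above all Bmi1 null arrays, and the other WT arrays lay within the Bmi1 null range. The log2 fold change was -0.95 ± 0.58 (SE) (95% interval -2.24 to 0.33, limma adjusted p = 0.794). Without WT replicate 3 it was -0.52. Krt88 had -0.16 ± 0.41 (SE), and 0.62 under normexp. Krt88 was above background on 1 Bmi1 null and 3 WT arrays, so its fold change was taken largely against background values.

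**Figure D3:**
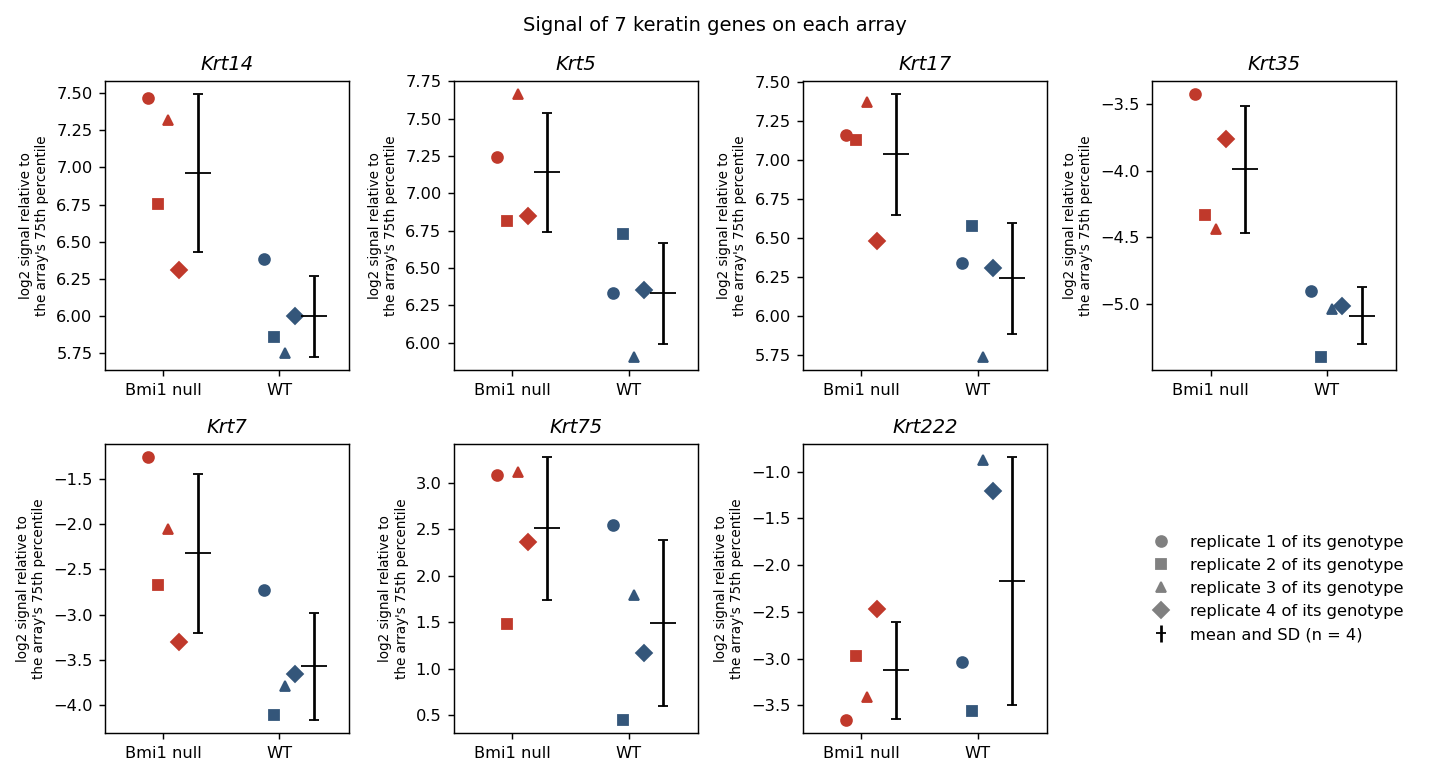
Signal of 7 keratins on each array (vertical axes, log2 with the array's 75th percentile at 0, a separate range for each gene), with Bmi1 null arrays left of WT arrays. Points are single arrays, shaped by replicate, and bars are mean and SD of 4. The groups are apart for Krt5 and Krt35 and overlap for the other 5.

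The arrays differed in their keratins within a genotype. Of the 28 tested keratins, 14 had their highest value in Bmi1 null replicate 1, 7 in Bmi1 null replicate 3, 1 in Bmi1 null replicate 4 and 0 in Bmi1 null replicate 2. WT replicates 1 to 4 held the highest value of 0, 1, 4 and 1 keratins. The median deviation from the WT mean over the 28 keratins was 1.09, 0.09, 0.72 and -0.05 in Bmi1 null replicates 1 to 4, against 0.23, -0.06, 0.10 and -0.30 in WT replicates 1 to 4. Bmi1 null replicates 2 and 4 thus lay inside the WT range. The lowest values gathered in WT replicate 2, with 8 keratins, and WT replicate 4, with 7. The sum of the keratin signals, in units of the array's 75th percentile, was 557, 399, 580 and 319 in Bmi1 null replicates 1 to 4, against 294, 289, 202 and 251 in WT replicates 1 to 4. The groups did not overlap in this sum, of which Krt5, Krt14 and Krt17 made up 84.6% to 91.1% on Bmi1 null arrays and 82.9% to 89.7% on WT arrays. The sum was not repeated under quantile normalization, where the fold changes of Krt5, Krt14 and Krt17 were smaller.

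**Figure D4:**
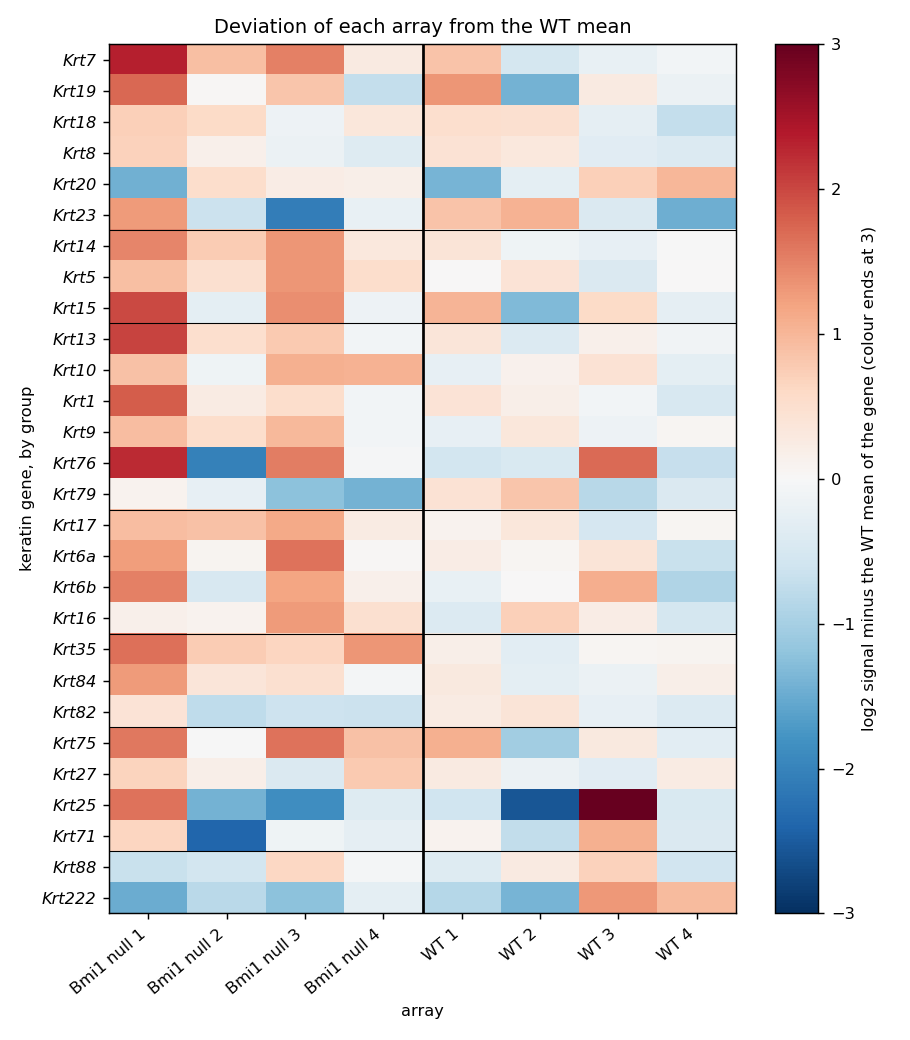
Log2 signal of each tested keratin on each array minus the WT mean of that keratin (colour, log2). Columns are Bmi1 null replicates 1 to 4 and then WT replicates 1 to 4, and rows are keratins in their groups. Bmi1 null replicates 1 and 3 are high for most rows, with medians of 1.09 and 0.72, and replicates 2 and 4 are near 0.

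Markers of the dissected epithelium and of other cells were summed in the same way, and no sum was repeated under another scaling. Bright genes weigh most in such sums, and the bright keratins Krt14, Krt5 and Krt17 had smaller fold changes under quantile normalization. Amelx was the brightest dental epithelium marker. The dental epithelium markers (11 of 12 on the array, all above background on every array, among them the enamel genes Ambn and Amelx and the epithelial cadherin Cdh1) summed to 378 to 532 in Bmi1 null and 194 to 263 in WT samples, in units of the 75th percentile. Of these 11, 7 (63.6%) were higher at an unadjusted p under 0.05, against 4.21% of all genes, and none passed 5% FDR by limma, with log2 fold changes of 0.95 for Ambn, 0.94 for Amelx, 0.54 for Cdh1 and 0.31 for Epcam. The ameloblast gene Odam had 3.36, with groups that overlapped (Bmi1 null replicate 2 at 0.26, WT replicate 3 at 2.77). The enamel protease gene Mmp20 had -0.05, Shh -0.13 and Dlx3 0.00. Immune markers (11 of 12 on the array) summed to 5.42 to 7.12 in Bmi1 null and 6.53 to 12.1 in WT samples. Fold changes were negative for 9 of the 10 tested, while 51.4% of all genes had positive ones. Of the 10, 5 (50%) were lower at an unadjusted p under 0.05, against 2.16% of all genes. The B cell gene Ms4a1 was called lower (limma adjusted p = 0.00702, against 0.00895% of all genes called lower). It was above background on 0 Bmi1 null and 4 WT arrays, and so was tested through the WT samples alone. Endothelial markers (10 of 10) summed to 23.2 to 39.999 in Bmi1 null and 29.1 to 49.8 in WT samples, with negative fold changes for 9 of 10. Of the 10, 2 (20%) were lower at an unadjusted p under 0.05, against 2.16% of all genes. Mesenchyme and odontoblast markers (14 of 14, all above background on every array) summed to 423, 1001, 881 and 719 in Bmi1 null replicates 1 to 4. In WT replicates 1 to 4 they summed to 484, 532, 447 and 656. Bmi1 null replicate 1 was thus the lowest array, and the other Bmi1 null arrays were above all WT arrays. Of the 14, 2 (14.3%) were higher and 2 (14.3%) lower at an unadjusted p under 0.05, against 4.21% and 2.16% of all genes. Muscle markers (12 of 12) summed to 3.84 to 8.89 in Bmi1 null and 3.41 to 9.97 in WT samples, with negative fold changes for 9 of 11 tested. Of the 11, 1 (9.09%) was lower at an unadjusted p under 0.05, against 2.16% of all genes. Nerve markers (7 of 8) summed to 27.3 to 53.4 in Bmi1 null and 28.8 to 47.2 in WT samples, with 0 of 7 at an unadjusted p under 0.05 by limma. Their part in the keratin values was not tested.

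The tested keratins were also set in their gene order. Along chromosome 11, the 8 consecutive tested keratins Krt35, Krt13, Krt15, Krt19, Krt9, Krt14, Krt16 and Krt17 all had positive log2 fold changes, between 0.47 and 1.1. In the other stretch of keratin genes on chromosome 11, Krt222, Krt25, Krt20 and Krt23 had negative and Krt27 and Krt10 positive values. Along chromosome 15, the 4 consecutive tested keratins Krt75, Krt6b, Krt6a and Krt5 had positive values between 0.60 and 1.02, and their neighbour Krt71 had -0.54. On each chromosome, 10 of the 14 tested keratins were positive, with medians of 0.54 and 0.47. These genes share arrays, and related keratins may cross-hybridise, since the files give no probe sequences. The runs are a description with no test.

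**Figure D5:**
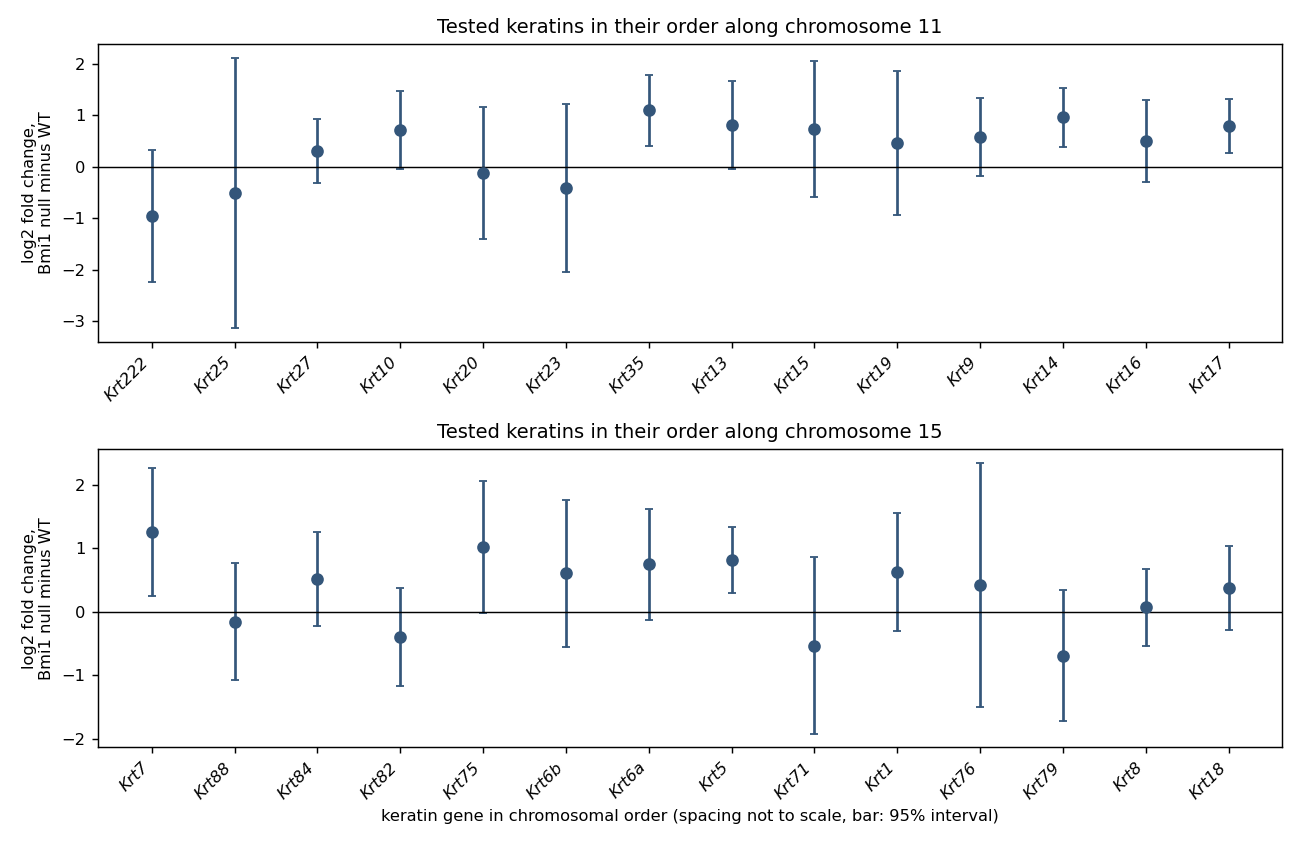
Log2 fold change, Bmi1 null minus WT, of the tested keratins (vertical axes, with 95% intervals) in their order along chromosomes 11 and 15 (horizontal axes, spacing not to scale). The stretch from Krt35 to Krt17 holds 8 positive values, and that from Krt75 to Krt5 holds 4.

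Genes listed beside the keratins were counted in the same fit, and not all of them are known to work with keratins. The first list held 22 tested plakins, junction proteins and other genes. Among these were Csnk1a1, Pnn, Tchp, the keratinocyte-associated Krtcap2 and Krtcap3, and the intermediate filament gene Bfsp1. Of the 22, 18 (81.8%) had positive fold changes (median 0.62), against 51.4% of all genes. In all, 9 (40.9%) were higher at an unadjusted p under 0.05, against 4.21% of all genes. None passed 5% FDR by limma. The 4 with the smallest p were Perp, a desmosome-associated p53 target (0.49), the keratinocyte-associated Krtcap3 (0.86), the plakophilin Pkp2 (0.87) and the hemidesmosomal integrin Itgb4 (0.60). The summed signal of the 22 spanned 265 to 368 over Bmi1 null samples and 184 to 234 over WT samples, and was not repeated under another scaling. Fam83h, which recruits a kinase to keratin filaments and is mutated in enamel disease, had 0.67. Of 27 tested regulators of keratin genes, 23 (85.2%) had positive fold changes (median 0.32), against 51.4% of all genes. At an unadjusted p under 0.05, 5 (18.5%) were higher, against 4.21% of all genes, and none passed 5% FDR. The 4 with the smallest p were Gata3 (1.32), Grhl2 (0.82), Zfp750 (0.95) and Ovol2 (0.84), all transcription factors of epithelial differentiation. Trp63, which encodes the basal epithelial factor p63, had 0.50, and Dlx3, a regulator of hair and enamel genes, had 0.00.

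The cornified envelope and keratohyalin list was taken to mark keratinising oral epithelium and epidermis. Of its 29 genes on the array, 17 were tested, 14 had positive fold changes (median 0.31), and 0 of 17 reached an unadjusted p under 0.05 by limma. The 4 with the smallest p were Calml3 (0.96), Sbsn (0.38), Sprr2a1 (0.60) and Dmkn (0.56). Its summed signal was 59.0, 125, 128 and 87.3 in Bmi1 null replicates 1 to 4, against 52.7, 102, 54.2 and 69.8 in WT replicates 1 to 4. Sprr2a1, its brightest gene, made up most of this sum on every array, so the sum mainly followed that gene. Sprr2a1 had 5.63, 6.85, 6.87 and 6.26 in Bmi1 null samples, against 5.5, 6.58, 5.35 and 5.77 in WT samples. Calml3, Lor and Dmkn were highest in Bmi1 null replicate 1. Of the list, 8 genes were above background on no array, among them Flg2, Rptn and Sprr3. Keratin-associated proteins, which crosslink hair keratins, had 11 of 33 genes tested and 17 on no array above background. Of the 11, 10 (90.9%) had positive fold changes (median 0.50), against 51.4% of all genes. At an unadjusted p under 0.05, 3 (27.3%) were higher, against 4.21% of all genes. Krtap5-1, Krtap5-4 and Krtap19-1 had 1.16, 1.27 and 0.70 at an unadjusted p under 0.05, and Krtap4-6 had 0.57. Of 9 other tested intermediate filament genes, with Bfsp1 counted above, 5 had positive fold changes (median 0.04), and 0 reached an unadjusted p under 0.05 by limma. Bfsp2, Iffo1, Iffo2 and Synm had 0.42, -0.35, 0.77 and -0.57, and Vim, the filament of mesenchyme, had 0.14.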

How the data were processed

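RNA of 4 Bmi1 null and 4 WT samples was hybridised to 1 array each, on 2 slides that each held 2 samples of each genotype. Per the file headers, the authors quantified the scans with Feature Extraction 10.5.1.1, and the processed signal used here is a linear intensity, corrected for background within the array and not normalised between arrays. The deposited table of log2 values has array medians between 6.76 and 6.77 and served as an alternative, and the steps behind it are not given in the sources used. Other deposited columns are the scanner software's indicators of 0 or 1 for each spot (background, saturation, outlier).

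RefSeq accessions gave a symbol to 24844 of 41174 probes. Signals of spots not flagged as outliers were expressed as log2 minus the array's 75th percentile. A gene was its probe with the highest mean among those well above background on at least 4 arrays. Each such probe without a symbol was kept as a gene of its own. The comparison used limma 3.58.1 in R 4.3.3 (eBayes with an intensity trend, two-sided, Benjamini-Hochberg over 22345 genes). The fit was also run on simulated data. How often it would call changes as small as those of the keratins is not reported here. The number of arrays limits the precision. Values on every array are given for Krt14, Krt5, Krt17, Krt35, keratins with an unadjusted p under 0.05 and the 6 with the largest change, and for some others chosen after their values were seen. The result of 1 marker list is not reported here. The members, lists and tests were chosen with earlier results of these data known. Alternatives changed background correction, scaling, floor, filter, probe choice, variance model, array weights, slide, threshold and each array.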

Additional observations from a re-analysis of the deposited data

Results flagged for a closer look

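Of 56 sets of 4 values (28 keratins in 2 genotypes), 3 held an array far from the other 3 of its genotype, and chance alone gives about 1 in 20. Krt10 was low in Bmi1 null replicate 2, at -4.73, with the next array at -3.71. Krt82 was high in Bmi1 null replicate 1, at -4.01, with the next at -5.03. Krt76 was high in WT replicate 3, at -1.72, with the next at -3.87.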

How the results depend on the processing

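No keratin passed 5% FDR by limma in any of the 24 alternatives (10% FDR included), where the lowest adjusted p of a keratin ranged from 0.140 to 0.962. The number at an unadjusted p under 0.05 ranged from 3 to 10 higher and 0 to 1 lower. The 10 were reached under normexp, with no filter (10 of 39) and with array weights, where 14.99%, 16.9% and 10.1% of all genes were higher too, against 4.21% as reported. The 1 lower was in slide 2, without Bmi1 null replicate 1 and without WT replicate 2. The keratin median log2 fold change ranged from 0.31 to 0.64, or 0.28 to 0.66 without 1 array each. Krt14, Krt5, Krt17, Krt35, Krt7, Krt75 and Krt222 kept their direction in all 24. Under normexp, where the median of all genes was 0.17 (0.01 as reported), Krt79, Krt82, Krt71, Krt23, Krt25, Krt88 and Krt20 turned positive (0.16, 0.39, 0.32, 0.59, 0.27, 0.62 and 0.23). With no filter the median of all genes was 0.13. Krt8 was -0.012 under quantile, -0.022 under cyclic loess and -0.28 in slide 2, where Krt18 was -0.012. With array weights Krt27 was -0.082, Krt88 0.27 and Krt20 0.13, and in slide 1 Krt23 was 0.62 and Krt25 0.64. Fits without 1 array each spanned 0 for 8 keratins: Krt76 -0.18 to 1.24, Krt88 -0.42 to 0.0676, Krt8 -0.14 to 0.22, Krt20 -0.60 to 0.31, Krt71 -0.93 to 0.0823, Krt23 -0.98 to 0.14, Krt19 -0.00703 to 0.91 and Krt25 -1.37 to 0.70. The causes were not tested. Over all genes, 11 were called (9 higher), against 5 under normexp (4 higher), 7 with the common floor (7 higher), 0 with the filter on all 8 arrays, 23 with array weights (16 higher), 1 in slide 1 and 19 in slide 2. No paired analysis was possible because the labels give the genotypes no shared replicate numbers. Dim signals limit what can be said of the 11 untested keratins.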
